A study of Mus musculus with 70 samples.

Results

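Matrix metalloproteinases and their inhibitors were followed in sorted mouse blood cells by 9 genes of the 52636 in the count table. The genes were fixed by name: the proteinases Mmp8, Mmp9, Mmp2, Mmp14, Mmp19 and Mmp25, and the inhibitors Timp1, Timp2 and Timp3. All 9 are protein-coding in GENCODE M21 (GRCm38), and each was read from its own row of raw read counts. RNA came from Ly6Chigh and Ly6Clow monocytes (labelled Ly6high and Ly6low), B cells and T cells of C57BL/6J mice, an inbred strain, bought at 7 weeks of age and given at least 1 week to settle. SUS and RES mice had gone through chronic social defeat stress (CSDS) over 10 days, in which an aggressive CD-1 male attacks the mouse and is then kept in sight and smell of it. CON mice were housed in pairs across a divider and were not defeated. SUS (susceptible) mice had a social interaction ratio below 1 in the test done 24 h after the last defeat, and RES (resilient) mice had a ratio of 1 or more. The labels give no genetic change or drug for any of these groups, and the sorted cells were taken from trunk blood after red cells had been lysed.

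On GRCm38 the proteinase genes are Mmp8 (ENSMUSG00000005800) at chr9:7558456-7568485, Mmp9 (ENSMUSG00000017737) at chr2:164940780-164955850, Mmp2 (ENSMUSG00000031740) at chr8:92827291-92853420, Mmp14 (ENSMUSG00000000957) at chr14:54431612-54445364, Mmp19 (ENSMUSG00000025355) at chr10:128790910-128800824 and Mmp25 (ENSMUSG00000023903) at chr17:23628311-23645277. The inhibitor genes are Timp1 (ENSMUSG00000001131) at chrX:20870166-20874735, Timp2 (ENSMUSG00000017466) at chr11:118301069-118355740 and Timp3 (ENSMUSG00000020044) at chr10:86300372-86349506. Mmp25 and Timp2 lie on the minus strand and the other 7 on the plus strand.

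Matrix metalloproteinases are zinc-dependent enzymes that cut collagens, proteoglycans and other proteins outside the cell, and most are made as inactive precursors. Mmp8 is a collagenase known from neutrophils and monocytes, Mmp9 and Mmp2 are gelatinases, Mmp14 and Mmp25 are held in the cell membrane, and Mmp19 is a secreted enzyme of wider substrate range. The tissue inhibitors of metalloproteinases (Timp) block the active site by inserting their first amino acids into it.

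The zinc-binding stretch of the catalytic domain is shown for the 6 proteinases because it is what the enzymes share and what the inhibitors block. Each stretch is 33 bases of coding sequence within 1 exon of GRCm38, written 5' to 3' on the gene's strand, with the codons of the 3 histidines that hold the zinc ion in capitals.
Mmp8 (chr9:7563086-7563118, plus strand): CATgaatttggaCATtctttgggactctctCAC
Mmp9 (chr2:164951133-164951165, plus strand): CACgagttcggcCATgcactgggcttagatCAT
Mmp2 (chr8:92839279-92839311, plus strand): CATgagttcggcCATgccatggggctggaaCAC
Mmp14 (chr14:54437627-54437659, plus strand): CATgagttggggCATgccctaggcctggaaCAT
Mmp19 (chr10:128795673-128795705, plus strand): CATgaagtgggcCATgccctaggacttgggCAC
Mmp25 (chr17:23632843-23632875, minus strand): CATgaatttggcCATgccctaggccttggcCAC

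The start of the mature inhibitor, the part that enters the active site, is shown for the 3 Timp genes as 39 bases with 3 cysteine codons in capitals. The first capitalised codon encodes the first amino acid of the mature protein.
Timp1 (chrX:20871111-20871149, plus strand): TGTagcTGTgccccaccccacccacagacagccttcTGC
Timp2 (chr11:118354974-118355012, minus strand): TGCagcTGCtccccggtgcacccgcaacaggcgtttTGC
Timp3 (chr10:86300923-86300961, plus strand): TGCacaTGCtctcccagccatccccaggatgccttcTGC

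The promoter window of Mmp8 is shown because this gene had the highest level of the 9 and the smallest p against CON among them in SUS mice. It covers 250 bases before and 50 after the start in RefSeq, on GRCm38.p6.
Mmp8 promoter (chr9:7558179-7558478, plus strand): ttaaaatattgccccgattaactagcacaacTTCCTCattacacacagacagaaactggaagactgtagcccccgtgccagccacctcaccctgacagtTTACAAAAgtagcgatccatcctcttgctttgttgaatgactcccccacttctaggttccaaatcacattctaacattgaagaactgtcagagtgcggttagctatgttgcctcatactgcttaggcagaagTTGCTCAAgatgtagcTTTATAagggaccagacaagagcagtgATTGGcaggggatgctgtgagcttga

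Capitals in the Mmp8 promoter mark, from left to right, a GAGGAA core (letters that PU.1 binds), the first of 2 matches to the C/EBP pattern TTNNGNAA, the second match, TATAAA and CCAAT. All of these matches read on the opposite strand. On both strands these patterns were also present in 28.3% (GAGGAA), 40.7% (TTNNGNAA), 13.6% (TATAAA) and 37.4% (CCAAT) of 32851 promoters of the same length. The AP-1 pattern TGANTCA, the GC box GGGCGG and the glucocorticoid half-site AGAACA had 0 matches in this window. In the same set of promoters they were present in 7.8%, 35.7% and 19.0%. None of the promoters of Mmp14, Mmp25, Timp1, Timp2 and Timp3 held TATAAA, and GGGCGG was present in all 5 of them. These are matches of letters and were not tested for binding.

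Of 70 libraries, 68 were used: 18 from Ly6Chigh and 16 from Ly6Clow monocytes, 17 from B cells and 17 from T cells, with 6 per group except 4 of Ly6Clow monocytes of CON mice, 5 of B cells of RES mice and 5 of T cells of RES mice. Replicate 52, labelled B cells of RES mice, carried T cell markers and replicate 70, labelled T cells of RES mice, carried B cell markers. Both were left out by the rule that fixed which genes and libraries were read. Totals were 19769835 to 67038231 counted reads per library. In the 68 libraries the summed markers of each sorted cell type were higher in every library of that type than in any other library. The source field of the labels names brain. Of 6 brain markers, Snap25, Syt1, Gfap, Tmem119 and P2ry12 stayed at or below 18.7 CPM (counts scaled to a common library size, normalised by the trimmed mean of M values, TMM) in every library, and Mbp, a gene that blood cells also transcribe, was at 55.9 to 500.2 CPM. In bulk RNA, fewer cells of a type and less RNA per cell cannot be told apart.

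In unstressed mice Mmp8 was a transcript of Ly6Chigh monocytes, Mmp19 was highest in the same cells, and Timp2 was the only inhibitor with more than traces of RNA. On the scale of CPM per kilobase of exon, which allows levels of different genes to be compared, the CON median in Ly6Chigh monocytes was 45.8 for Mmp8, 8.42 for Timp2 and 4.80 for Mmp19. The other members had medians of 0.404 (Mmp9), 0.336 (Mmp2), 0.284 (Mmp25), 0.0118 (Mmp14) and 0 (Timp1 and Timp3). Mmp9, Mmp2 and Mmp25 had ranges that overlapped one another, so their order was not resolved. In Ly6Clow monocytes of CON mice Timp2 had the highest median, 3.27 CPM per kilobase. Mmp9, at 0.707, and Mmp25, at 0.665, came next, and the upper end of Mmp9 (2.04) reached into the Timp2 range. Timp2 was also the main member in T cells (median 7.68 CPM per kilobase), ahead of Mmp25 (0.323). B cells held little of any member: the highest CON median was that of Timp2, at 0.247 CPM per kilobase.

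**Figure D1:**
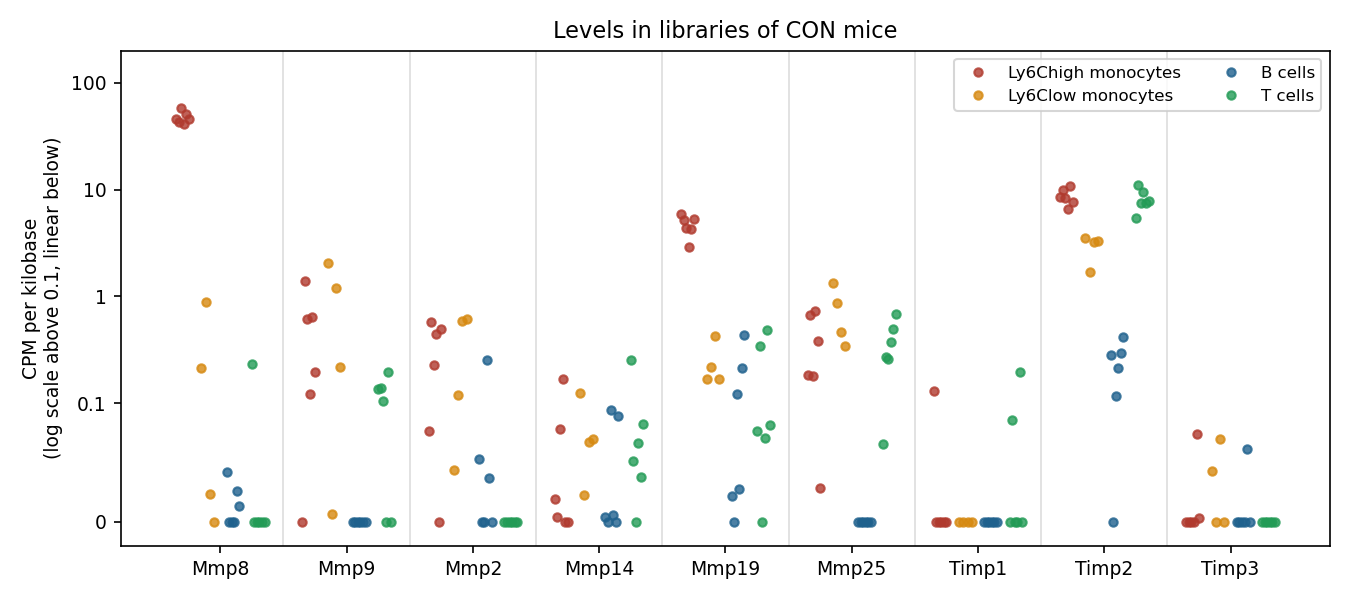
Levels of the 9 members in the libraries of CON mice, as CPM per kilobase of exon (log axis above 0.1, linear below), with 1 point per library and 1 colour per sorted cell type. Mmp8 and Mmp19 stand highest in Ly6Chigh monocytes (n = 6), and Timp2 is present in both monocyte types and in T cells.

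Between the monocyte types of CON mice, 3 of 8 members tested were called at an adjusted p below 0.05 and an absolute log2 fold change above 1, all higher in Ly6Chigh cells, beside 11.2% of all genes tested and 4.46% called higher. Mmp8 was higher by 7.31 on the log2 scale (SE 0.97, adjusted p = 1.61e-05 in the quasi-likelihood test of edgeR). Mmp19 was higher by 4.24 (SE 1.02, adjusted p = 0.00401, edgeR) and Timp2 by 1.55 (SE 0.42, adjusted p = 0.00946, edgeR). Mmp25, Mmp9, Mmp14, Mmp2 and Timp3 differed by less than their error allows to be called, with fitted log2 differences from -1.12 to -0.17. Against the 2 lymphocyte types, the 2 monocyte types together were higher in 6 of 8 members tested, beside 32.1% of all genes called and 18.2% called higher. These were Mmp8, Mmp9, Mmp2, Mmp19, Mmp25 and Timp2. For Mmp9, Mmp25 and Mmp2 the averaged fold includes a lymphocyte group at 0 counts, so its size is not measured. The contrast averages the 2 types on each side: for Timp2 the T cell median (7.68 CPM per kilobase) lay above that of Ly6Clow monocytes (3.27), and for Mmp25 it (0.323) lay above that of Ly6Chigh monocytes (0.284). Mmp9 and Mmp25 had 0 counts in all 6 B cell libraries of CON mice and Mmp2 had 0 in all 6 T cell libraries, which limits their levels there to 0.0131 CPM, 0.0131 CPM and 0.0129 CPM over the group (3 counts of its total, counting error only). Timp1 was not tested, and Timp3 reached an adjusted p of 0.0515 (edgeR).

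In Ly6Chigh monocytes Mmp8 and Mmp19 RNA was higher in SUS than in CON mice. Of the 7 members that passed the filter on low counts, 2 were called in SUS against CON mice, Mmp8 and Mmp19, both higher, beside 3.45% of 16955 genes called and 2.28% called higher (387 of 585 calls, and 296 of 540 with DESeq2's size factors). At an unadjusted p below 0.05 the same count of 2 members stood beside 26.5% of genes. In RES against CON mice 0 of 7 were called, beside 0.997% of genes, and 2 (Mmp8 and Mmp19) had an unadjusted p below 0.05, beside 21.2%. DESeq2 called 2 members in SUS and 0 in RES mice. Over the 7 members tested, the median log2 difference by edgeR was 0.91 in SUS and 0.60 in RES mice. Over all genes tested it was -0.05 and -0.03. Both member medians are the values of Mmp9, which was low and not called (SE 0.94 in each). Timp1 and Timp3 did not pass the filter.

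Mmp8, the collagenase, was at 97.2, 99.0, 104, 108, 117 and 132 CPM in the 6 CON libraries. It was at 189, 254, 288, 347, 355 and 414 CPM in the SUS libraries and at 153, 160, 163, 199, 276 and 331 CPM in the RES libraries. All 12 libraries of stressed mice lay above all 6 CON libraries, while SUS and RES overlapped. Groups that did not overlap, with the stressed mice higher, were seen for 4.3% of genes in SUS and 2.86% in RES mice. The fold was 2.82 in SUS (log2 1.49, SE 0.20, adjusted p = 0.000209, edgeR) and 1.95 in RES mice (log2 0.96, SE 0.19, adjusted p = 0.0138, edgeR), so the RES difference passed the adjusted p and fell short of the fold threshold. It passed both when RES replicate 3, RES replicate 6, RES replicate 12 or CON replicate 7 was left out (log2 1.04, 1.04, 1.05 and 1.01).

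Mmp19 was at 10.1, 14.2, 14.4, 17.4, 17.7 and 20.4 CPM in CON libraries of the same cells. The SUS libraries held 14.3, 36.2, 37.5, 69.5, 76.5 and 84.0 CPM, and the RES libraries held 10.0, 16.2, 22.3, 38.4, 46.0 and 57.5 CPM. Thus 5 of 6 SUS libraries lay above every CON library and the sixth lay within the CON range. Against CON the fold was 3.37 in SUS mice (log2 1.75, SE 0.38, adjusted p = 0.0043, edgeR) and 2.02 in RES mice (log2 1.01, SE 0.37, adjusted p = 0.11, edgeR), which did not pass. Without RES replicate 6, which held the lowest of the RES values, the RES difference was 1.20 with an adjusted p of 0.0477 (edgeR). The 3 SUS libraries highest in Mmp19 were the 3 highest in Mmp8, and the same held for the 3 highest RES libraries, while the SUS library lowest in Mmp19 was also the lowest in Mmp8.

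Between SUS and RES mice neither gene was called in Ly6Chigh monocytes, as was true of all 7 members and of all 16955 genes (0%). The log2 difference was 0.53 for Mmp8 (SE 0.19, adjusted p = 0.999, edgeR) and 0.74 for Mmp19 (SE 0.37, adjusted p = 0.999, edgeR). At an unadjusted p below 0.05, 1 of 7 members, Mmp8, passed and 620 genes did (3.66%). DESeq2 called 0 members and 20 genes.

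Mmp19 overlaps Tmem198b, which lies on the opposite strand and shares 789 exon bases with it, and the antisense gene Gm47093, which shares 212. Whether the counting used strand is not given in the sources used here. Tmem198b was at 3.74 to 5.73 CPM in CON, 4.50 to 13.6 CPM in SUS and 3.32 to 10.9 CPM in RES mice, and its SUS difference was not called (log2 0.68, SE 0.34, adjusted p = 0.197, edgeR). Gm47093 had 0 counts in every Ly6Chigh library of CON and SUS mice.

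**Figure D2:**
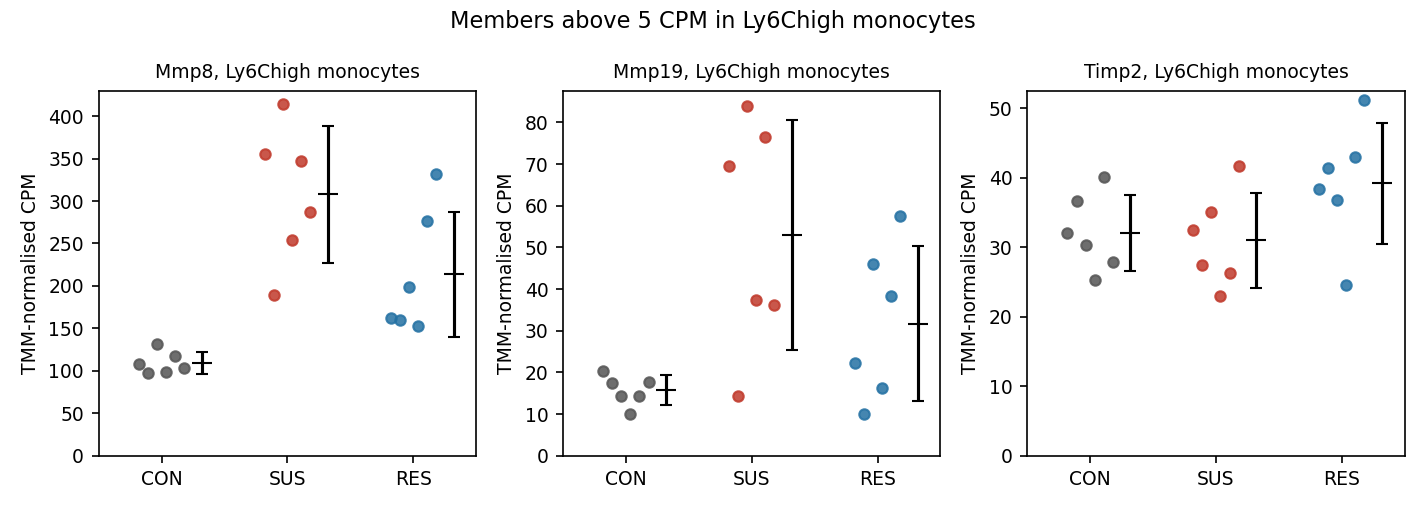
TMM-normalised CPM of Mmp8, Mmp19 and Timp2 in Ly6Chigh monocytes, with 1 point per library and the mean ± SD beside each group (n = 6 each). All SUS and RES points of Mmp8 lie above the CON points, those of Mmp19 overlap in part, and those of Timp2 overlap fully between CON and SUS.

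Because Mmp8 is stored in neutrophil granules, genes of neutrophils were read in the same libraries. Of 6 genes of mature neutrophils, Ly6g, Cxcr2, Retnlg, Stfa2l1 and Mrgpra2a together came to 0.832 to 13.3 CPM in CON, 0.588 to 5.52 CPM in SUS and 0.0533 to 8.70 CPM in RES libraries. The sixth, Cd177, was at 262 to 547 CPM in the 18 libraries. Summed over all 6, the list was at 264 to 361 CPM in CON, 302 to 487 CPM in SUS and 379 to 547 CPM in RES libraries. The 9 granule genes (Camp, Ltf, Lcn2, Ngp, Mpo, Elane, Prtn3, Ctsg and Fcnb) summed to 7.56 to 436 CPM in CON, 57.3 to 1389 CPM in SUS and 85.5 to 762 CPM in RES libraries. By adjusted p, 2 of the 9 granule genes were higher in SUS and 1 in RES mice. Of the 3 mature neutrophil genes tested 0 changed in SUS and 1 was higher in RES mice. Over all genes tested, 12.6% in SUS and 4.97% in RES mice passed the adjusted p in either direction. The library with the lowest granule sum in CON, replicate 4 (7.56 CPM), was also the lowest of its group in Mmp8, at 97.2 CPM. In SUS it was replicate 17 (57.3 CPM), with 288 CPM of Mmp8, and in RES it was replicate 18 (85.5 CPM), the highest of its group in Mmp8, at 331 CPM. With the mean of the mature neutrophil genes as a covariate the Mmp8 difference in SUS mice was 1.48 (adjusted p = 0.000356, edgeR) and that of Mmp19 was 1.74 (adjusted p = 0.00546, edgeR). The mean was taken over log2(CPM + 0.5), so each of the 6 genes had the same weight, those near 0 CPM included. Apart from Cd177 the genes in that mean came together to at most 13.3 CPM, and no granule gene was in it. Whether granule RNA has a part in these results cannot be read from this fit and was not tested.

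RNA of red cells was higher after stress in the same libraries. All 6 red cell markers (Hba-a1, Hba-a2, Hbb-bs, Hbb-bt, Alas2 and Slc4a1) were higher in SUS than in CON mice by adjusted p (1 of 6 in RES mice), and their sum was at 332 to 1142 CPM in CON, 1049 to 8776 CPM in SUS and 1044 to 4130 CPM in RES libraries. With the mean of their log2(CPM + 0.5) as a covariate the Mmp8 difference in SUS mice was 1.33 (adjusted p = 0.1, edgeR) and that of Mmp19 was 1.26 (adjusted p = 0.685, edgeR), so neither was called. The count over all genes went from 585 to 1 in that fit. Whether red cell RNA has a part in these results cannot be read from this fit and was not tested. Of other marker lists, 3 of 4 Ly6Chigh monocyte markers and 1 of 6 platelet genes were higher in SUS mice by adjusted p. Among all genes tested 12.6% passed it in SUS and 4.97% in RES mice, in either direction.

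Timp2, an inhibitor that also takes part in the activation of Mmp2 by Mmp14, was not called in Ly6Chigh monocytes. It was at 25.3, 27.9, 30.4, 32.0, 36.7 and 40.2 CPM in CON libraries, at 23.0, 26.3, 27.5, 32.6, 35.2 and 41.6 CPM in SUS libraries and at 24.6, 36.8, 38.3, 41.4, 43.0 and 51.2 CPM in RES libraries. The 3 groups overlapped. The log2 difference from CON was -0.05 in SUS (SE 0.18, adjusted p = 0.901, edgeR) and 0.29 in RES mice (SE 0.18, adjusted p = 0.374, edgeR). Neither passed the threshold, which does not show that the levels were alike. In T cells Timp2 was at 22.1 to 45.0 CPM in CON, 31.2 to 45.7 CPM in SUS and 33.5 to 43.6 CPM in RES libraries, with log2 differences of 0.17 and 0.27 from CON that were not called. In Ly6Clow monocytes it was lower, at 7.90 to 16.1 CPM in CON, 5.31 to 13.4 CPM in SUS and 9.91 to 14.1 CPM in RES libraries, with a log2 difference of -0.50 in SUS mice (SE 0.26, adjusted p = 0.562, edgeR). B cells held at most 2.78 CPM.

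Timp1 and Timp3, the other inhibitors, were close to absent. Timp1 had a count in 7 of the 68 libraries and Timp3 in 14, with at most 62 and 28 counts. Timp1 had 0 counts in all 17 B cell libraries, which limits its level there to 0.00487 CPM over all of them. The single library with 62 counts of Timp1 was one of T cells of RES mice, where the other 4 held 0. Timp1 lies within Syn1 and Timp3 within Syn3, both on the opposite strand. Timp3 shares 1733 exon bases with Syn3, so its few counts are uncertain. Timp2 spans Cep295nl, at 0.142 to 7.04 CPM in Ly6Chigh monocytes of CON mice, and Mmp25 spans the pseudogenes AC154766.2 and AC154766.3, but neither member shares exon bases with them.

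The gelatinases Mmp9 and Mmp2 were low and varied widely between libraries of one group. In Ly6Clow monocytes, where Mmp9 was highest, the CON libraries held 0.0269, 0.910, 5.04 and 8.53 CPM, the SUS libraries 1.18, 2.96, 4.09, 6.11, 13.4 and 29.5 CPM and the RES libraries 0.863, 0.913, 2.46, 5.49, 6.69 and 11.3 CPM. The groups overlapped and the SUS difference of 1.40 on the log2 scale had an SE of 1.17 (adjusted p = 0.814, edgeR). In Ly6Chigh monocytes Mmp9 was at 0 to 4.67 CPM in CON, 0.430 to 7.83 CPM in SUS and 0.208 to 6.86 CPM in RES libraries. In T cells the RES libraries of Mmp9, at 0.849, 1.68, 1.97, 2.35 and 4.44 CPM, all lay above the CON libraries, which reached 0.729 CPM. The SUS libraries, at 0 to 1.76 CPM, overlapped CON. That RES difference of 2.65 on the log2 scale (SE 1.10) had an unadjusted p of 0.0231 and an adjusted p of 1.00 (edgeR), and non-overlap with RES higher was seen for 0.371% of genes in T cells. Mmp2 reached 4.14 CPM in Ly6Clow and 2.12 CPM in Ly6Chigh monocytes with overlapping groups, and it had 0 counts in all 17 T cell libraries, a limit of 0.00460 CPM.

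Of the membrane-bound enzymes, Mmp25 had counts in every T cell and every Ly6Clow library. In T cells its 6 CON libraries held 0.366, 1.44, 1.51, 2.07, 2.73 and 3.76 CPM, the SUS libraries 2.35, 2.603, 3.07, 5.50, 6.58 and 15.4 CPM and the RES libraries 2.34, 2.63, 4.99, 5.78 and 8.31 CPM. The groups overlapped, with 3 of 6 SUS and 3 of 5 RES libraries above every CON library. The log2 difference from CON was 1.58 in SUS (SE 0.49, unadjusted p = 0.00335, adjusted p = 0.412, edgeR) and 1.28 in RES mice (SE 0.51, unadjusted p = 0.0174, adjusted p = 1.00, edgeR), so neither was called. In both monocyte types the fitted differences had the opposite sign and were not called. In Ly6Clow monocytes Mmp25 was at 2.13 to 8.35 CPM in CON, 1.77 to 4.93 CPM in SUS and 1.54 to 6.21 CPM in RES libraries, with a log2 difference of -0.73 in SUS (SE 0.48, adjusted p = 0.701, edgeR) and -0.51 in RES mice (SE 0.48, adjusted p = 0.834, edgeR). In Ly6Chigh monocytes it was at 0.143 to 3.80 CPM in CON and 0 to 1.34 CPM in SUS libraries (log2 -1.73, SE 1.10, adjusted p = 0.338, edgeR). All 17 B cell libraries had 0 counts of Mmp25, a limit of 0.00487 CPM.

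Mmp14, which can activate Mmp2 at the cell surface, had its largest fitted differences in monocytes at low counts. In Ly6Clow monocytes it was at 0.161, 0.477, 0.490 and 0.876 CPM in CON libraries, at 0.435, 0.696, 1.56, 2.93, 5.61 and 6.12 CPM in SUS libraries and at 0, 1.01, 1.11, 2.81, 4.196 and 4.67 CPM in RES libraries. Of the stressed libraries, 4 of 6 SUS and 5 of 6 RES lay above every CON library. The log2 difference was 2.52 in SUS (SE 0.97, unadjusted p = 0.0159, adjusted p = 0.354, edgeR) and 2.19 in RES mice (SE 0.96, unadjusted p = 0.0314, adjusted p = 0.452, edgeR). In Ly6Chigh monocytes Mmp14 was at 0 to 0.994 CPM in CON, 0 to 3.68 CPM in SUS and 0 to 2.44 CPM in RES libraries, and the SUS difference was 2.58 with an SE of 1.32 (adjusted p = 0.218, edgeR). None of these differences was called.

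**Figure D3:**
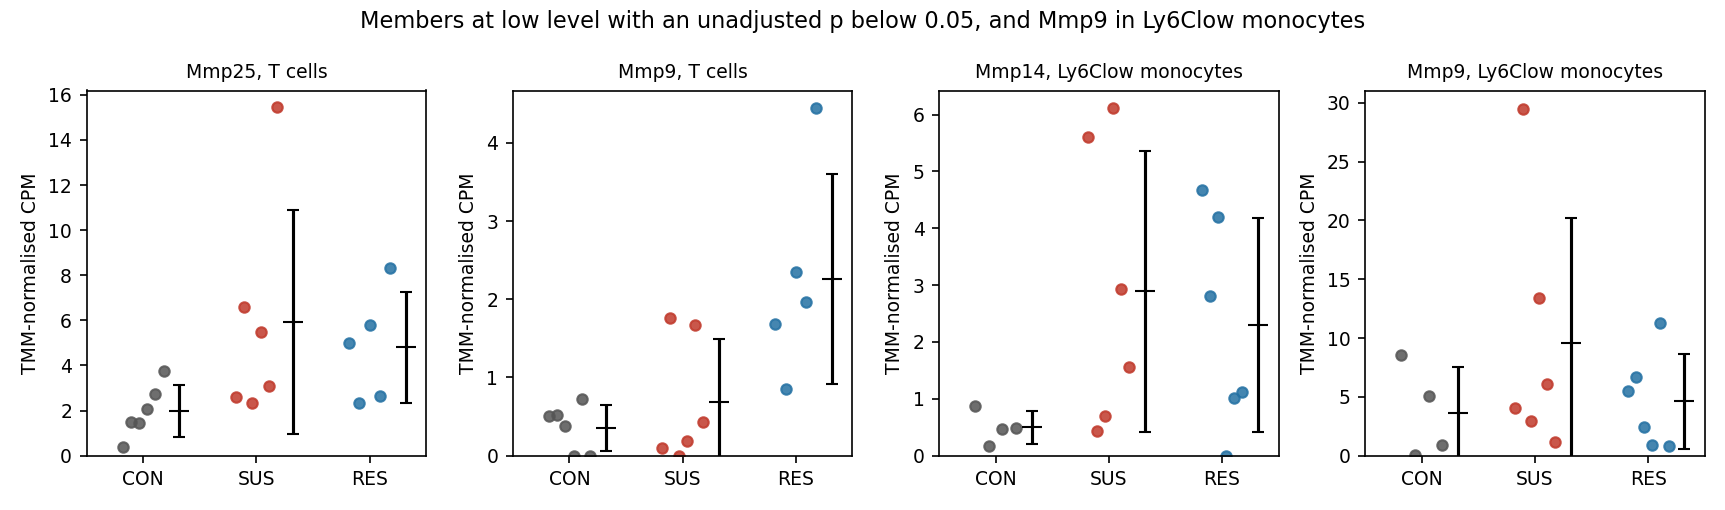
TMM-normalised CPM of Mmp25 and Mmp9 in T cells and of Mmp14 and Mmp9 in Ly6Clow monocytes, with 1 point per library and the mean ± SD beside each group (bars end at 0). The RES libraries of Mmp9 in T cells lie above all CON libraries, and in the other panels CON and stressed libraries overlap.

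Outside Ly6Chigh monocytes 0 members were called against CON by edgeR and by DESeq2. In Ly6Clow monocytes 0 of 8 members tested were called in SUS and in RES mice, beside 0.0871% and 0.0154% of genes, and 1 of 8, Mmp14, had an unadjusted p below 0.05 in each, beside 9.51% and 9.67%. In T cells 0 of 6 were called, beside 0.0265% and 0% of genes, and 1 of 6 in SUS (Mmp25) and 2 of 6 in RES mice (Mmp25 and Mmp9) had an unadjusted p below 0.05, beside 4.8% and 4.11%. In B cells 0 of 3 were called, beside 0.00568% and 0% of genes, and 0 had an unadjusted p below 0.05, beside 3.42% and 3.18%. Between SUS and RES mice 0 members were called in these cell types, beside 0% of genes. Mmp8 in Ly6Clow monocytes was at 0 to 2.55 CPM in CON and 0 to 8.33 CPM in SUS libraries, and Mmp19 was at or below 3.31 CPM in every library of that type. For Mmp8 in T cells the fitted log2 rise over CON was 2.88 in SUS mice (SE 1.78) and 3.55 in RES mice (SE 1.86). Neither was called. Only 1 of 6 T cell libraries of CON mice had counts of Mmp8, and no T cell library exceeded 3.52 CPM.

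**Figure D4:**
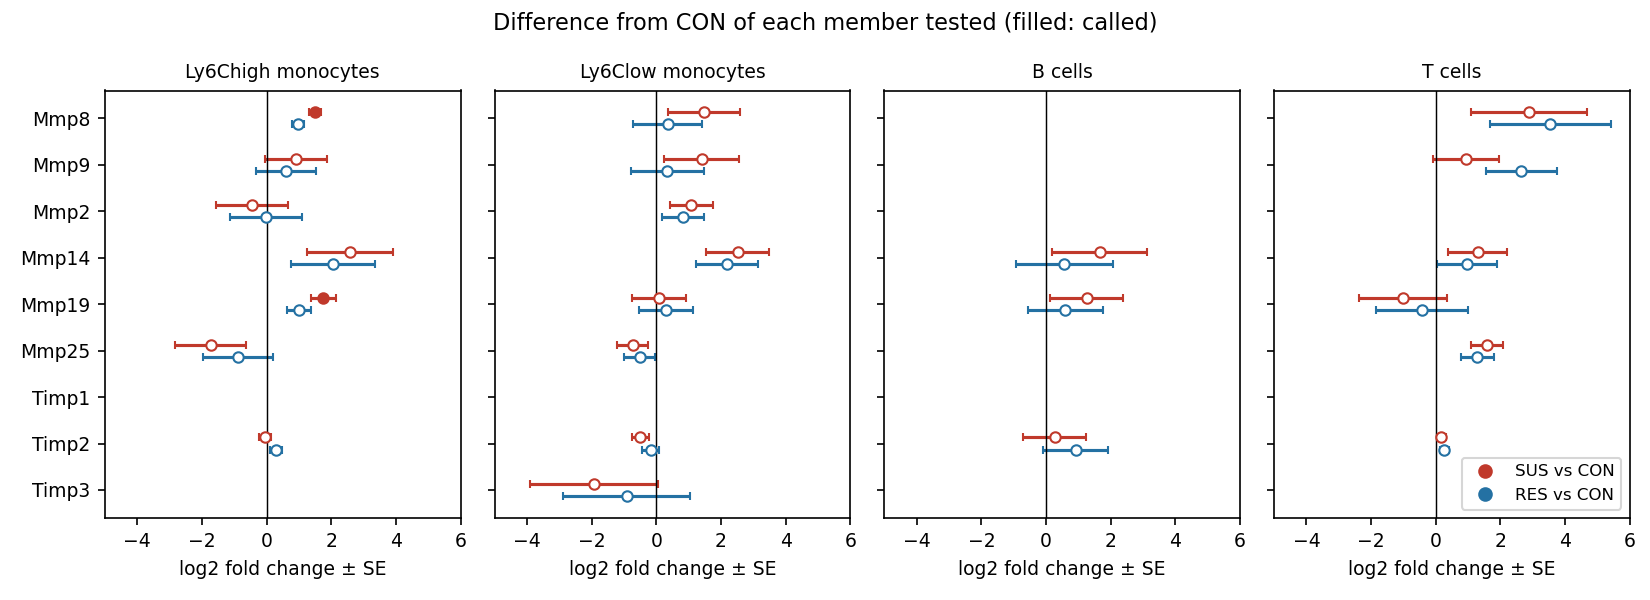
Log2 fold changes from CON with their standard errors for each member that passed the filter in each sorted cell type, SUS in red and RES in blue, with filled points for those called. The 2 filled points are Mmp8 and Mmp19 of SUS mice in Ly6Chigh monocytes, and the members at low counts have the widest errors.

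Whether a member's change differed between Ly6Chigh monocytes and another cell type was tested as an interaction in 1 fit of 12 group means. Only members with counts in all 4 groups compared are counted here, since a fold over a group at 0 is no measured change, which left out Mmp9 and Mmp25 against B cells, Mmp2 and Timp3 against T cells and, for the RES change, Timp3 against B cells. For the SUS change 0 of 8 members passed an adjusted p of 0.05 against Ly6Clow monocytes, 0 of 6 against B cells and 0 of 6 against T cells, beside 0.363%, 6.18% and 3.22% of 24248 genes. For the RES change 0 of 8, 0 of 5 and 0 of 6 passed, beside 0.099%, 1.65% and 0.713%. At an unadjusted p below 0.05, 0, 0 and 2 members (Mmp25 and Mmp19) passed for the SUS change, beside 14.2%, 21.2% and 18.7% of genes. For the RES change 0 passed against each, beside 11.7%, 18.2% and 17.7%. The Mmp8 change in SUS mice was larger in Ly6Chigh than in Ly6Clow monocytes by 0.09 on the log2 scale with an SE of 1.30 (adjusted p = 1.00, edgeR), with 0 to 267 counts of it per Ly6Clow library. Against B cells and T cells the fitted Mmp8 change in SUS mice was lower in Ly6Chigh monocytes, by -2.63 (SE 1.87) and -1.48 (SE 1.49). Its RES change differed by 0.66 (SE 1.27) against Ly6Clow monocytes, -1.21 (SE 2.14) against B cells and -2.75 (SE 1.47) against T cells. None of these Mmp8 differences had an unadjusted p below 0.05 (edgeR), so their sign was not resolved. The Mmp25 change in SUS mice was lower in Ly6Chigh monocytes than in T cells by a log2 value of -3.27 (SE 1.10, unadjusted p = 0.00451, adjusted p = 0.0785, edgeR).

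The ratio of proteinase to inhibitor RNA, the 6 Mmp genes summed over the 3 Timp genes in CPM per kilobase, was taken per library as a description. In Ly6Chigh monocytes it was 5.05 to 7.64 (median 6.39) in CON, 11.7 to 24.9 (median 20.0) in SUS and 6.49 to 11.7 (median 10.6) in RES libraries. SUS lay above CON without overlap, and RES overlapped both. Mmp8 made up 84.1% to 95.3% of the proteinase sum in the 18 libraries and Mmp19 made up 4.10% to 13.3%, and Timp2 made up at least 98.5% of the inhibitor sum. In Ly6Clow monocytes the median ratio was 0.976 for CON, 2.22 for SUS and 1.23 for RES libraries, with overlapping ranges. There the median share of the proteinase sum in CON was 29.4% for Mmp9, 29.1% for Mmp25, 13.4% for Mmp2 and 3.15% for Mmp8. In T cells inhibitor RNA exceeded proteinase RNA in every library, with median ratios of 0.0906 in CON, 0.200 in SUS and 0.198 in RES libraries, and Mmp25 was the largest proteinase share (median 56.0% in CON).

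**Figure D5:**
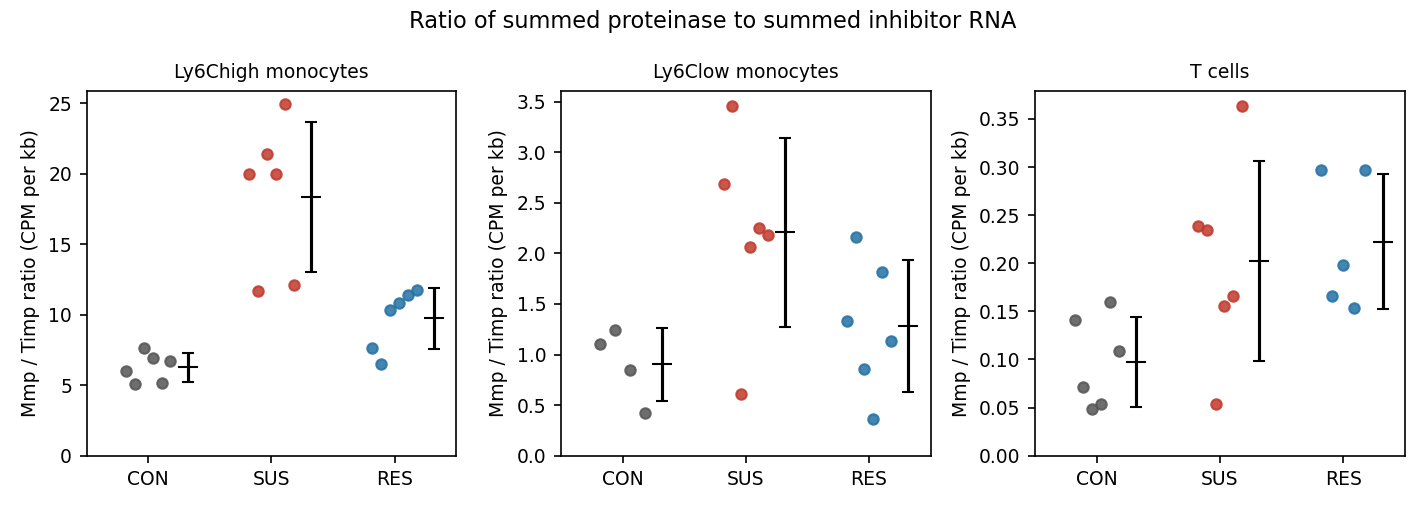
Ratio of the 6 summed Mmp genes to the 3 summed Timp genes, in CPM per kilobase, for Ly6Chigh monocytes, Ly6Clow monocytes and T cells (each panel has its own axis), with 1 point per library and the mean ± SD beside each group. In Ly6Chigh monocytes the SUS libraries lie at 11.7 to 24.9, above all CON libraries, and in T cells every library lies below 1.

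Other genes of the pathway were read as 5 lists of 61 genes, of which 32 passed the filter in Ly6Chigh monocytes. Of the activators, partners and receptors 14 of 16 were tested, and Prtn3 and Bsg were higher by adjusted p in both SUS and RES mice. Prtn3, a serine protease of granules, was at 1.71 to 2.64 CPM in CON and 10.8 to 44.8 CPM in SUS libraries (log2 3.54, SE 0.43, adjusted p = 0.000166, edgeR). Prtn3 is also among the granule genes counted above as higher in SUS and in RES mice. Of the matrix and other substrates 5 of 11 were tested. Lamc1, a laminin chain, was at 1.48 to 5.63 CPM in CON and 25.5 to 101.5 CPM in SUS libraries (log2 4.13, SE 0.72, adjusted p = 0.00206, edgeR). It was also called in RES mice, at 2.96 to 66.9 CPM (log2 2.91, SE 0.68, adjusted p = 0.0262, edgeR). Tgfbi, an adhesion protein of the matrix, was at 879 to 1198 CPM in CON and 1387 to 3135 CPM in SUS libraries (log2 1.07, SE 0.19, adjusted p = 0.00144, edgeR). In RES mice Tgfbi passed the adjusted p alone, at 1355 to 2856 CPM (log2 0.85, SE 0.19, adjusted p = 0.0169, edgeR). Vcan, a proteoglycan and also a marker of these cells, was at 290 to 537 CPM in CON and 448 to 1524 CPM in SUS libraries (log2 1.26, SE 0.28, adjusted p = 0.00527, edgeR). Of the other Mmp genes 5 of 17 were tested and 1 was called: Mmp28 was lower in SUS mice, at 1.57 to 3.46 CPM beside 3.63 to 9.18 CPM in CON libraries (log2 -1.27, SE 0.39, adjusted p = 0.0344, edgeR).

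Of 7 other metzincins tested, Adam9 and Adam15 were higher and Adamts10 lower in SUS mice by adjusted p, all within a log2 change of 1. The 1 other inhibitor tested of 5 did not pass. Over the 32 pathway genes 9 passed the adjusted p in SUS mice (7 higher, 2 lower) and 5 in RES mice (4 higher, 1 lower), beside 12.6% and 4.97% of all genes. The lists were chosen with earlier results of these data known, so these counts are a description and no test of an excess. In Ly6Clow monocytes, B cells and T cells 0 of 32, 25 and 28 pathway genes passed against CON.

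The genes whose pattern over the 12 means of cell type and group was most like that of a member were taken among 12386 genes with at least 5 CPM in some mean. For Mmp8 they were I830127L07Rik (Pearson's r = 0.996), S100a8 (0.993) and Ndrg1 (0.992). For Mmp19 they included Camp (0.991) and Gm6522 (0.991), and for Timp2 they were Il6st (0.992), Atp10a (0.991) and Racgap1 (0.989). Mmp9 had lower values, with Phf11a (0.958), Lrrc8b (0.946) and A730081D07Rik (0.944). The 12 means share the libraries and their normalisation. They differ by cell type as well as by group, so a high r need not mean that genes move together between groups. In Ly6Chigh monocytes the medians of CON, SUS and RES libraries were 15.9, 53.5 and 30.3 CPM for Mmp19. For Camp they were 20.8, 25.9 and 22.0 CPM.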

How the data were processed

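RNA from fluorescence-sorted blood cells was made into stranded total RNA libraries and sequenced in pairs of 150 bases by the authors. They aligned reads with HISAT2 to mm10, counted them per Ensembl gene with HTSeq and deposited raw counts, not normalised; the options for strand are not given in the sources used here. The members and gene lists were chosen with earlier results of these data known. Libraries 52 and 70, whose markers go against their labels, were left out by the rule that fixed which genes and libraries were read. Totals of 19769835 to 67038231 counts per library bear on the precision, and limits for counts of 0 cover counting error only. Labels name no mouse or batch, so libraries were treated as independent, and p-values measure the spread between these libraries. Over 161 pairs of libraries of one group no pair was identical, and the lowest chi-square per degree of freedom was 26.1.

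edgeR 4.0.16 (R 4.3.3) was used with filterByExpr, TMM and robust quasi-likelihood fits: 1 fit of CON, SUS and RES per cell type, 1 fit of the 4 cell types of CON mice, and 1 fit of 12 group means for interactions. P-values were adjusted by Benjamini-Hochberg over all genes tested. Genes were called at an adjusted p below 0.05 and an absolute log2 fold change above 1 (interactions: adjusted p alone). Standard errors were taken as the fold change divided by the root of F. CPM within a cell type uses that fit's factors, and CPM per kilobase uses factors over all 68 libraries and merged GENCODE M21 exons. The code was tested on simulated data.

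All 9 members are named. Of the pathway lists, those that passed both thresholds in Ly6Chigh monocytes were named, at most 8 in order of p, and for members of at least 5 CPM the 3 genes most alike in log2(CPM + 0.5), of which 1 is not reported here. Alternatives were DESeq2 1.42.0, its size factors, other filters, fewer groups, covariates, removed genes and each library left out. Sequences are from GRCm38 with GENCODE M21 and from RefSeq (GRCm38.p6), which matched 6 of 9 members by promoter; Mmp9, Mmp2 and Mmp19 had none in the table used.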

Additional observations from a re-analysis of the deposited data

Results flagged for a closer look

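Values far from the rest of their group were looked for in members of at least 5 CPM and in the ratio of proteinase to inhibitor RNA, over 27 groups, of which chance flags about 1 in 20. In Ly6Clow monocytes of CON mice Timp2 in replicate 24 was at 7.90 CPM beside 14.9 to 16.1 CPM in the other 3 libraries. In Ly6Clow monocytes of SUS mice the ratio in replicate 25 was 0.605 beside 2.06 to 3.46 in the other 5 libraries. Timp1, with 22 counts, made up 34.5% of the inhibitor sum in replicate 25, the only library of that group with a count of it. Mmp8 had 0 counts there.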

How the results depend on the processing

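The call of Mmp8 and Mmp19 in Ly6Chigh monocytes of SUS mice (2 members) was kept under DESeq2 and with its size factors in edgeR. It was kept with both filters, in fits of 2 groups and with each of 18 libraries left out. Removal of mitochondrial, hemoglobin and ribosomal RNA genes or (chosen after seeing the data) of Gm23935 and Gm26917 kept it too. So did the mature neutrophil covariate, which held no granule gene. With the red cell covariate the count of members called was 0. In RES mice 0 members were called, 1 (Mmp8) by adjusted p alone, and 0 to 2 with a library left out. Without 1 library the log2 change in SUS mice was 1.39 to 1.60 for Mmp8 and 1.58 to 1.95 for Mmp19. DESeq2 gave 1.42 (adjusted p = 1.18e-09) and 1.68 (adjusted p = 0.000273), with a median over all genes of -0.16 in place of -0.05. Over all genes in Ly6Chigh monocytes, calls went from 169 to 511 with DESeq2 and 259 with 2 groups in the fit for RES mice, from 0 to 20 with DESeq2 between SUS and RES mice, and from 585 to 1 (SUS) and 169 to 0 (RES) with the red cell covariate. With libraries 52 and 70 kept, 1 member (Mmp25, at 0 in the other B cell libraries) differed in its RES change between Ly6Chigh monocytes and B cells. In place of CPM per kilobase, CPM gave median ratios of 4.22, 13.2 and 6.97 in Ly6Chigh monocytes of CON, SUS and RES mice. Among CON cell types, Timp3 made a seventh member higher in monocytes without any 1 of 5 libraries (Ly6Chigh replicate 1, 4 or 7, Ly6Clow replicate 24 or 32) and with all libraries in the fit. No replicate block was used: groups share no replicate number. No paired analysis was possible because the labels name no mouse. Standard errors of Mmp9, Mmp2, Mmp14, Mmp25 and Timp3 within cell types were 0.43 to 1.98 on the log2 scale, and whether depth or spread between libraries sets them was not tested. Timp1 had too few counts to be tested.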

Other observations

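The libraries left out held the members at these levels on plain totals. Replicate 52, labelled B cells of RES mice, had 340 counts of Mmp25 (8.23 CPM) and 1252 of Timp2 (30.3 CPM), where the other 5 B cell libraries of RES mice had 0 counts of Mmp25 and at most 88 of Timp2. Replicate 70, labelled T cells of RES mice, had 0 counts of Mmp25 and 21 of Timp2 (0.573 CPM), where the other 5 T cell libraries of RES mice had at least 88 and 971. Mmp8 had 0 counts in both.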
